A study of Mus musculus with 10 samples.

Results

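The 10 circadian clock genes Arntl, Clock, Npas2, Per1, Per2, Per3, Cry1, Cry2, Nr1d2 and Dbp were chosen by symbol from the 33502 genes of a single-nucleus RNA-sequencing matrix. Nuclei came from tissue punches of the paraventricular thalamus (PVT) and its surroundings in C57BL/6J mice 12 weeks of age, with the mice of a sample pooled, and no mouse was treated or carried an engineered allele. The 10 libraries form a set of 4 libraries whose deposited metadata give the sex as male and a set of 6 female libraries. None of the sources used here gives the hour at which tissue was taken, which bears on any clock transcript. Values are unique molecular identifiers (UMIs, counted RNA molecules) summed over the nuclei of a library and a deposited cell type, and levels are given as CPM (UMIs per 1000000 UMIs of the TMM-scaled total of each sum). Because levels are not divided by transcript length, no gene is ranked against another.

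The mammalian clock is a feedback loop of transcription. ARNTL (also called BMAL1) pairs with CLOCK, or with its paralog NPAS2, and drives the genes of the PER and CRY repressors, which then block that pair. The nuclear receptor NR1D2 represses Arntl in a second loop, and DBP is an output factor that acts on D-box elements.

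Upstream windows from RefSeq (GRCm38.p6) were found for 9 of the 10 genes, in 13 windows that run from 250 to 21 bases before an annotated start. They were searched on both strands for an E-box (CACGTG, bound by ARNTL with CLOCK or NPAS2), a D-box (TTATGTAA, bound by DBP), a RORE (TAGGTCA, bound by NR1D factors) and a cyclic AMP response element (TGACGTCA). The E-box letters were in 2 of the 13 windows, against 5.35% of all 32851 windows, and the D-box letters in 1, against 0.77%. The RORE (2.07% of all windows) and the cyclic AMP element (1.28%) were in 0 of the 13. The 3 windows with a match follow, with the match in capitals. They overlap no exon of GENCODE M21.
Per1 (chr11:69098699-69098928, plus strand): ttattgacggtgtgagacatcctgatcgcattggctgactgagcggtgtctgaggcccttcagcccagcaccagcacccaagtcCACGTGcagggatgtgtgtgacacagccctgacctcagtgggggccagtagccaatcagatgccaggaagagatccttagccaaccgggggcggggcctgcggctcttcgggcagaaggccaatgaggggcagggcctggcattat
Cry1 (chr10:85185075-85185304, minus strand): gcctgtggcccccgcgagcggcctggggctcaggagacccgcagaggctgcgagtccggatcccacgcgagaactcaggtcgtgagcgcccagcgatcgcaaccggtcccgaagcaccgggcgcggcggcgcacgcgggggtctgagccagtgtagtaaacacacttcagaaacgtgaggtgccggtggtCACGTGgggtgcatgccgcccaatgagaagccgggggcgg
Per3 (chr4:151044686-151044915, minus strand): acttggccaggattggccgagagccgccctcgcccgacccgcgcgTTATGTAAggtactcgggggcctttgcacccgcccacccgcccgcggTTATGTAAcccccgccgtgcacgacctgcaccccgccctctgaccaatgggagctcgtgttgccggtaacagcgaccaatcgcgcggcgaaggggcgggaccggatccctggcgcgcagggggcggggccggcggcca
Positions count from the annotated start that the window precedes. The E-box letters began 166 bases before that start in Per1 and 60 bases before it in Cry1, and the D-box letters of Per3 began 205 and 158 bases before it. The printed Per1 window lies inside the RefSeq span of the gene (chr11:69095108-69109965). The window of another annotated start of Per1 held no match. A match describes letters in a window and was not tested as a binding site.

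The matrix held 20503 nuclei, of which 10410 were neurons and 5302 astrocytes, and each of the 8 types had its markers highest in its own type (29 of 29 markers). The study had named the types by some of these markers, so this is a description and not an independent check. Male libraries held 7568267 to 55956635 UMIs and female libraries 5119927 to 12891409. Per3 had 7410 UMIs in male nuclei and 0 in all female nuclei, so Per3 is given from male libraries only. Sex, the set of counted genes, median UMIs per neuron and, but for male replicate 2, the mitochondrial percent change together between the sets. They cannot be told apart. Median UMIs per neuron were 12586 to 21085 in male and 5666 to 9770 in female libraries, while total UMIs and median UMIs per astrocyte overlapped. The hour of collection is not known and cannot be told apart from them either. Of 20457 barcodes, 46 (0.225%) occurred in more than 1 library.

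Across cell types, Arntl and Npas2 were highest in neurons and astrocytes, Per3 and Dbp were higher in astrocytes and lower in neurons, Per2 was higher in astrocytes and OPCs, and microglia and oligodendrocytes were low for most of the 10. Each type was tested against the mean of the other types with edgeR's quasi-likelihood test, with the library as a block, and a difference was called at a Benjamini-Hochberg adjusted p under 0.05 over 9499 genes and a log2 fold change above 0.5 in size. For the 9 genes counted in both sets, 17 of 72 tests were called higher and 19 lower. Such calls were common: 57.1% of all genes were called in neurons, 41.2% in astrocytes, 50.3% in microglia and 46.9% in oligodendrocytes. Against this background, 5 of 9 clock genes were called in neurons, 5 in astrocytes, 7 in microglia and 5 in oligodendrocytes. In the smaller types 5 of 9 were called in OPCs (oligodendrocyte precursor cells, 34.0% of all genes), 3 in endothelial cells (38.6%), 4 in ependymal cells (46.2%) and 2 in fibroblasts (20.4%). In astrocytes all 5 calls were higher (21.3% of all genes were called higher) and in microglia all 7 were lower (27.5% of all genes were called lower). The median log2 fold change of the 9 was 0.86 in astrocytes and -0.89 in microglia, against -0.01 and -0.10 over all genes.

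**Figure D1:**
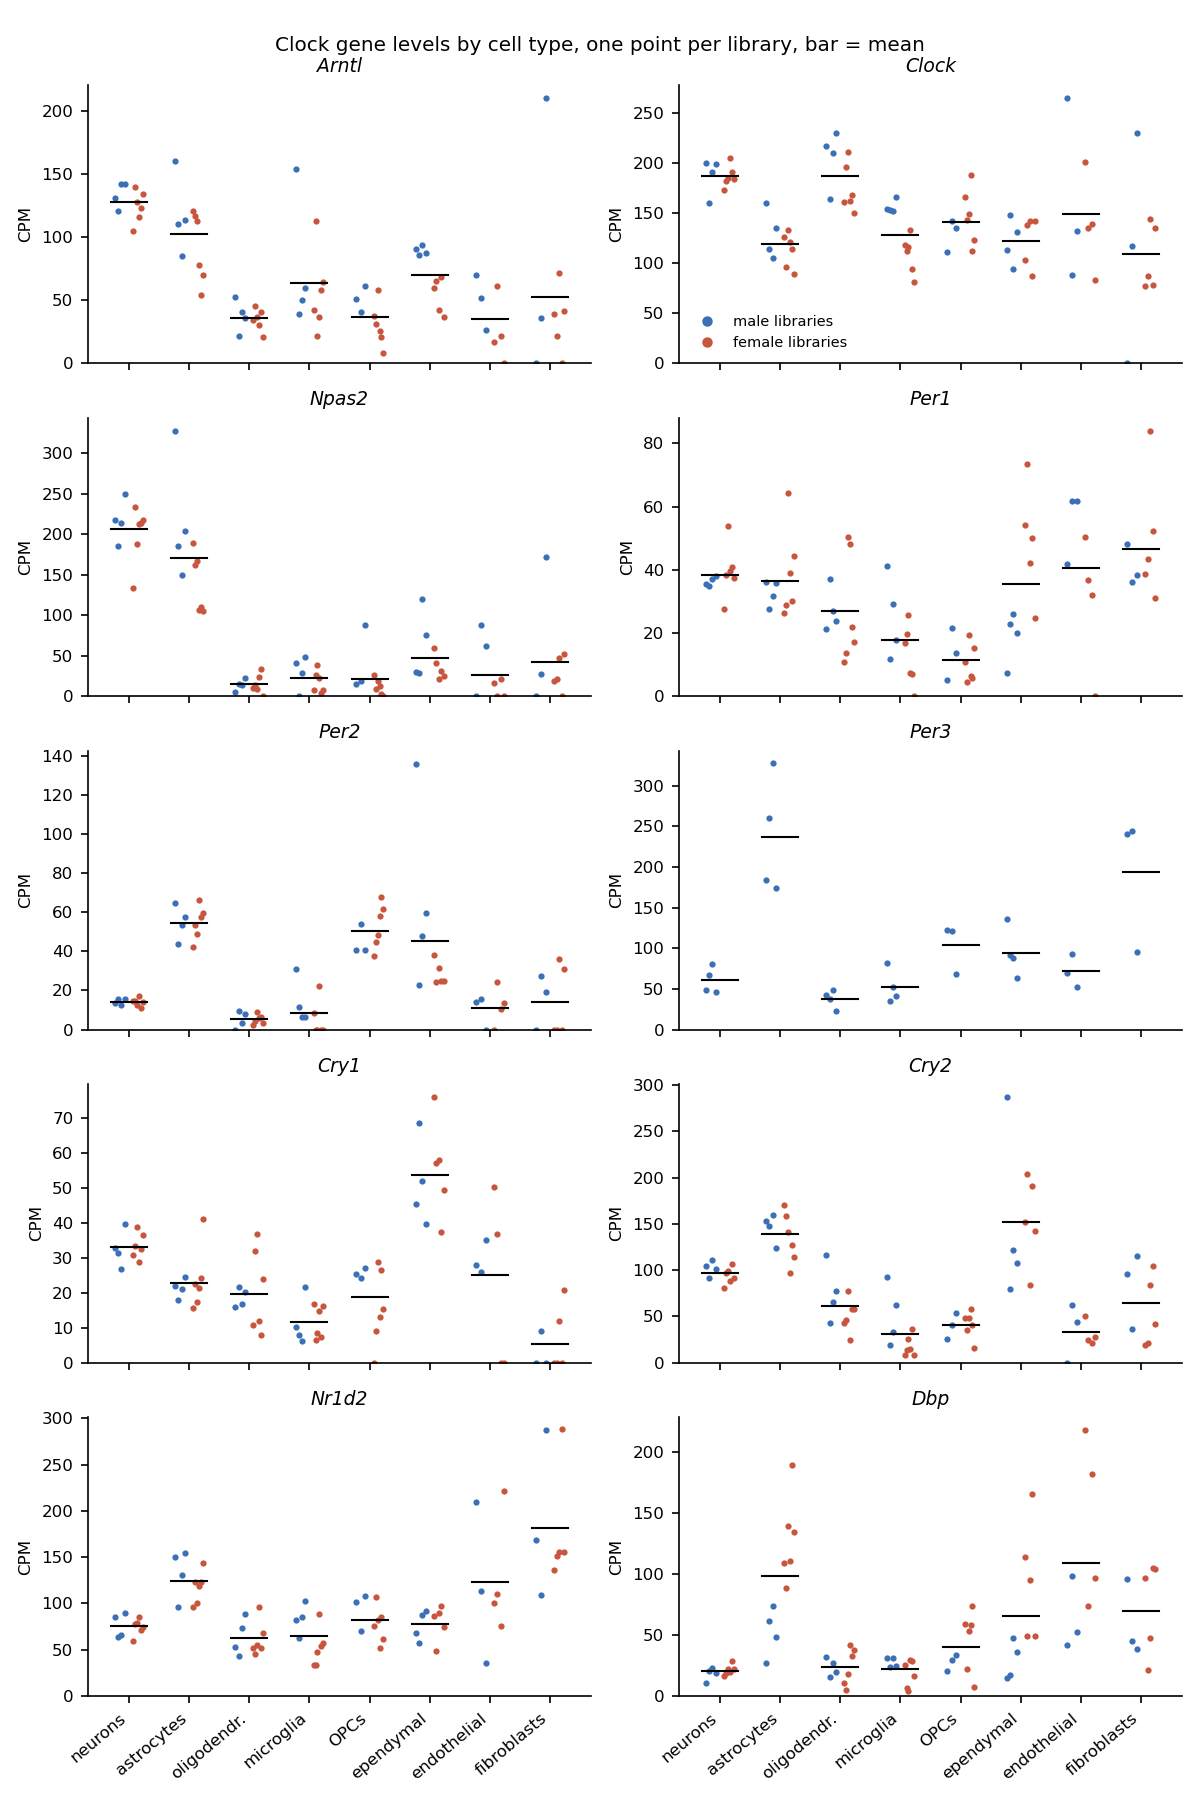
Level (CPM, linear axis from 0) of each clock gene in each deposited cell type, 1 point per library (blue male, red female) with the mean as a bar. Npas2 points of neurons (134 to 249 CPM) and astrocytes (106 to 328 CPM) lie above those of oligodendrocytes (0 to 34.3 CPM), and Per3 is shown for male libraries only.

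Npas2, the Clock paralog that is abundant in the forebrain, lies at chr1:39193702-39363240 (gene positions from RefSeq, GRCm38.p6) and was high in neurons and astrocytes alone. In neurons its lowest, median and highest library levels were 134, 214 and 249 CPM, in astrocytes 106, 164 and 328 CPM, and in oligodendrocytes 0, 13.6 and 34.3 CPM. Every library of neurons and of astrocytes lay above every library of oligodendrocytes. The log2 fold change against the other types was 2.53 ± 0.16 (SE) in neurons (adjusted p = 7.97e-24, edgeR) and 2.15 ± 0.18 in astrocytes (adjusted p = 4.04e-18), each higher in 10 of 10 libraries. Npas2 was lower in oligodendrocytes (-1.79), OPCs (-1.43) and microglia (-1.11). The astrocyte and neuron levels did not differ at the threshold (log2 -0.33 ± 0.18 for astrocytes minus neurons, adjusted p = 0.0965, a contrast in which 59.9% of all genes were called). In the fit of neurons and astrocytes by set, astrocytes were lower in the 6 female libraries (log2 -0.57 ± 0.17, adjusted p = 0.00457) and not called in the 4 male libraries (-0.18 ± 0.18), and the difference between the sets was not called (adjusted p = 0.487).

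RNA released from neurons can enter other nuclei's droplets, so the neuronal markers Rbfox3, Syt1, Rbfox1 and Snap25 were read beside Npas2. In astrocytes these 4 stood at 6.0% to 12.4% of their neuron level, and Npas2 at 82.7%. In oligodendrocytes they stood at 6.9% to 16.1%, and Npas2 at 7.2%, so its level there was not above that background. The summed level of the 4 markers ranged from 402 to 1821 CPM over astrocyte libraries and from 8121 to 12940 CPM over neuron libraries.

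Arntl (chr7:113178471-113314126), which encodes the partner of CLOCK and NPAS2, was also highest in neurons. Its lowest, median and highest levels were 105, 129 and 142 CPM in neurons, 54.5, 112 and 161 CPM in astrocytes, and 20.4, 36.3 and 52.9 CPM in oligodendrocytes. Oligodendrocyte libraries lay below every neuron and astrocyte library, while neurons and astrocytes overlapped. Arntl was called higher in neurons (log2 1.30 ± 0.12, adjusted p = 1.87e-16) and astrocytes (0.86 ± 0.13, adjusted p = 4.42e-08) and lower in oligodendrocytes (-0.83 ± 0.18) and OPCs (-0.73 ± 0.22). From ependymal cells down the order (microglia, fibroblasts, OPCs, endothelial cells, oligodendrocytes), no neighbours differed, with adjusted p from 0.194 to 0.974.

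Clock (chr5:76209868-76305603) had no call in any type by edgeR or DESeq2, although 4 of 8 types had an unadjusted p under 0.05. Mean levels were 187 ± 13.6 CPM in neurons (SD, n = 10), 187 ± 28.8 CPM in oligodendrocytes (n = 10) and 120 ± 20.7 CPM in astrocytes (n = 10). Its log2 fold changes of 0.48 in neurons and 0.48 in oligodendrocytes passed the adjusted p but not the size limit. These tests are against the mean of the other types. In the fit of neurons and astrocytes by set, Clock was called lower in astrocytes of male libraries (log2 -0.69 ± 0.11, adjusted p = 9.84e-06, edgeR). The same held in female libraries (-0.78 ± 0.10, adjusted p = 7.19e-07). In those contrasts 58.0% and 61.5% of all genes were called. Oligodendrocytes, low for Npas2 and Arntl, had a Clock level that differed little from that of neurons (log2 -0.0020 ± 0.11 for neurons minus oligodendrocytes, adjusted p = 0.989, where 62.5% of all genes were called).

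**Figure D2:**
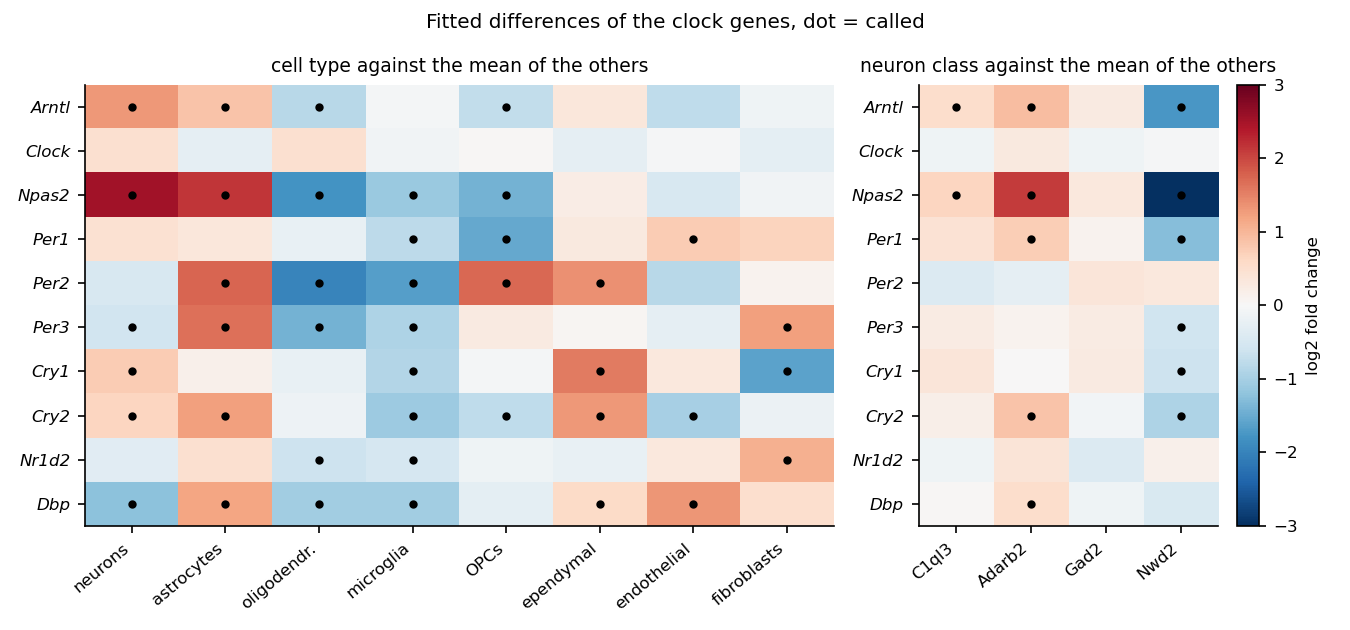
Fitted log2 fold change (color, red higher, with the scale ending at 3) of each clock gene (rows) in each cell type or marker class of neurons (columns) against the mean of the others, with a dot where called. Astrocytes hold red dots for Arntl, Npas2, Per2, Per3, Cry2 and Dbp, and the Nwd2 class holds blue dots for Arntl, Npas2, Per1, Per3, Cry1 and Cry2.

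The period genes encode the PER repressors, and Per2 (chr1:91415977-91459351) separated the glial types. Its lowest, median and highest levels were 42.1, 55.5 and 66.2 CPM in astrocytes, 37.6, 48.2 and 67.8 CPM in OPCs, 10.8, 14.4 and 17.3 CPM in neurons, and 0, 5.29 and 9.27 CPM in oligodendrocytes. All astrocyte and OPC libraries were above all neuron libraries, which were above all oligodendrocyte libraries. The oligodendrocyte levels rest on few UMIs of Per2, 0 to 16 in a male library and 1 to 4 in a female library. Per2 was called higher in astrocytes (log2 1.75 ± 0.16, adjusted p = 1.86e-16), OPCs (1.72 ± 0.22, adjusted p = 8.57e-10) and ependymal cells (1.38 ± 0.23) and lower in oligodendrocytes (-1.98 ± 0.29, adjusted p = 1.26e-08) and microglia (-1.66 ± 0.34). OPCs, the precursors of oligodendrocytes, and astrocytes did not differ (log2 0.03 ± 0.21 for astrocytes minus OPCs, adjusted p = 0.929, where 38.7% of all genes were called). The fitted ependymal value was higher than the mean of the other types in only 6 of 9 libraries, and male replicate 1 was far above the rest at 136 CPM.

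Per3 (chr4:150997018-151044707), the third period gene, was highest in astrocytes and fibroblasts of the male libraries. In astrocytes it stood at 184, 260, 327 and 174 CPM in male replicates 1 to 4, and in neurons at 49.0, 66.5, 81.1 and 46.6 CPM. Each library was higher in astrocytes. Fitted on male libraries alone (11577 genes tested), Per3 was called higher in astrocytes (log2 1.66 ± 0.13, adjusted p = 1.53e-12) and fibroblasts (1.22 ± 0.27) and lower in oligodendrocytes (-1.41 ± 0.19), microglia (-0.93 ± 0.20) and neurons (-0.57 ± 0.14). The fibroblast sums came from male replicates 2, 3 and 4 alone, with 10, 35 and 18 nuclei. Unlike Per2, Per3 was not called in OPCs (0.26 ± 0.22) or ependymal cells (0.05 ± 0.20). In that fit 34.4% of all genes were called in astrocytes, 6.91% in fibroblasts, 36.2% in oligodendrocytes, 34.1% in microglia and 47.9% in neurons.

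Per1 (chr11:69095108-69109965), which also responds to neuronal activity, varied less. It averaged 38.3 ± 6.57 CPM in neurons (SD, n = 10), 36.4 ± 11.3 CPM in astrocytes (n = 10), 17.7 ± 12.1 CPM in microglia (n = 10) and 11.4 ± 6.40 CPM in OPCs (n = 9). It was called lower in OPCs (log2 -1.52 ± 0.27, adjusted p = 3.37e-06) and microglia (-0.79 ± 0.22), and higher in endothelial cells (0.76 ± 0.30, adjusted p = 0.0335) on 31 UMIs in 7 libraries. The endothelial call was lost without female replicate 1 (adjusted p = 0.0591) and without male replicate 1, 3 or 4.

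Among the cryptochromes, which block the activator pair, Cry2 (chr2:92403646-92434085) was high in astrocytes and ependymal cells and Cry1 (chr10:85131700-85185054) in ependymal cells. Cry2 levels were 97.4, 145 and 170 CPM in astrocytes (lowest, median, highest), 80.3, 98.4 and 111 CPM in neurons and 8.11, 22.7 and 92.5 CPM in microglia. Astrocyte and neuron libraries overlapped, and the difference between them passed the test (log2 0.50 ± 0.13, adjusted p = 6.05e-04), just past the size limit. In the fit by set it was 0.38 ± 0.12 in male and 0.45 ± 0.11 in female libraries, inside that limit and not called. Cry2 was called higher in ependymal cells (1.29 ± 0.16), astrocytes (1.22 ± 0.12) and neurons (0.65 ± 0.12), and lower in microglia (-1.08 ± 0.20), OPCs (-0.76 ± 0.21) and endothelial cells, at 32.8 ± 20.7 CPM there (SD, n = 7, adjusted p = 0.00810). In nuclei under 1 percent mitochondrial UMIs the endothelial value was 0.50 and not called. Cry1 averaged 53.7 ± 12.7 CPM in ependymal cells (SD, n = 9), where it was higher than the other types in 9 of 9 libraries (log2 1.55 ± 0.21, adjusted p = 8.80e-10), and 33.2 ± 4.16 CPM in neurons (n = 10, log2 0.76 ± 0.14). The lower call of Cry1 in fibroblasts rests on 4 UMIs and was lost when any of 6 libraries was left out.

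Nr1d2 (chr14:18204056-18239106), a repressor of Arntl, was highest in fibroblasts, and Dbp (chr7:45705100-45710203) in endothelial cells and astrocytes. Nr1d2 averaged 182 ± 68.1 CPM in fibroblasts (SD, n = 8), 124 ± 21.4 CPM in astrocytes and 75.0 ± 9.83 CPM in neurons (n = 10 each). It was called higher in fibroblasts (log2 1.06 ± 0.18, adjusted p = 3.62e-06) and lower in oligodendrocytes (-0.62 ± 0.12) and microglia (-0.51 ± 0.14). The microglial value was between -0.48 and -0.45, inside the size limit, without female replicate 1, 2, 3, 5 or 6. Dbp levels were 26.8, 98.6 and 190 CPM in astrocytes (lowest, median, highest) and 10.4, 19.9 and 28.6 CPM in neurons. The ranges overlapped only through male replicate 1, which was lowest in both types, and every library was higher in astrocytes. Astrocytes exceeded neurons by a log2 difference of 2.12 ± 0.16 (adjusted p = 1.04e-20), and Dbp was called lower in neurons (-1.23 ± 0.14, adjusted p = 5.92e-12), oligodendrocytes (-1.05 ± 0.20) and microglia (-1.04 ± 0.24) and higher in endothelial cells (1.32 ± 0.27) and astrocytes (1.19 ± 0.14). The ependymal call of Dbp (0.58 ± 0.20) turned to -0.028 in male libraries alone and was lost without female replicate 1 or 5.

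Other genes of the loop, a list of 16 chosen by name, gave 28 higher and 24 lower calls in 96 tests of the 12 that passed the filter. In astrocytes 8 of 12 were called higher, where 21.3% of all genes were, and 1 lower (Csnk1e, a kinase that acts on PER proteins, log2 -0.67 ± 0.13). Those called higher include Nr1d1, the paralog of Nr1d2, at 78.6 ± 33.6 CPM against 11.2 ± 3.12 CPM in neurons (SD, n = 10 each), Bhlhe40, a repressor of the loop (log2 1.87 ± 0.14), Rorb, a ROR activator (2.73 ± 0.16), and Tef and Hlf, relatives of Dbp (0.79 ± 0.09 and 1.16 ± 0.11).

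Neurons were then split by regional markers that are not clock genes. C1ql3 marks the PVT, Adarb2 the mediodorsal thalamus, Gad2 GABAergic neurons and Nwd2 the habenula, and a nucleus took a class when it had at least 2 UMIs of a marker whose scaled level was at least 2 times that of the next. Of 10410 neurons, 3966 took the C1ql3 class, 1777 Adarb2, 299 Gad2 and 876 Nwd2, and 3492 took none. The Nwd2 class had Tac2, another habenular gene, at 953 CPM, and the Adarb2 class 15.5 CPM. Of the 1777 Adarb2 nuclei, 1023 came from the deposited cluster with the highest Adarb2 and 357 from the cluster with the highest Cdh24. Cdh24, which the study used for the intermediodorsal thalamus, averaged 24.4 CPM in the Adarb2 class and 5.01 CPM in the C1ql3 class. The Adarb2 class is therefore not mediodorsal neurons alone. The Gad2 class was mixed: only 122 of its 299 nuclei came from the deposited cluster with the highest Gad2, and its Gad1 and Slc32a1 averaged 33.9 and 43.0 CPM beside C1ql3 at 182 CPM. Its values are therefore given with those of the deposited clusters.

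Arntl, Npas2, Per1, Cry2 and Dbp were higher in the Adarb2 class, and Arntl, Npas2, Per1, Cry1 and Cry2 were lower in the Nwd2 class, each against the mean of the other classes. Over 11136 genes tested, 13.1% were called higher in the Adarb2 class and 19.7% lower in the Nwd2 class. For the 9 clock genes counted in both sets these numbers were 5 higher and 5 lower, with 0 calls the other way in either class, and their median log2 fold change was 0.53 and -0.63, against -0.03 and 0.07 for all genes. In the C1ql3 class 2 were called higher (10.6% of all genes).

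**Figure D3:**
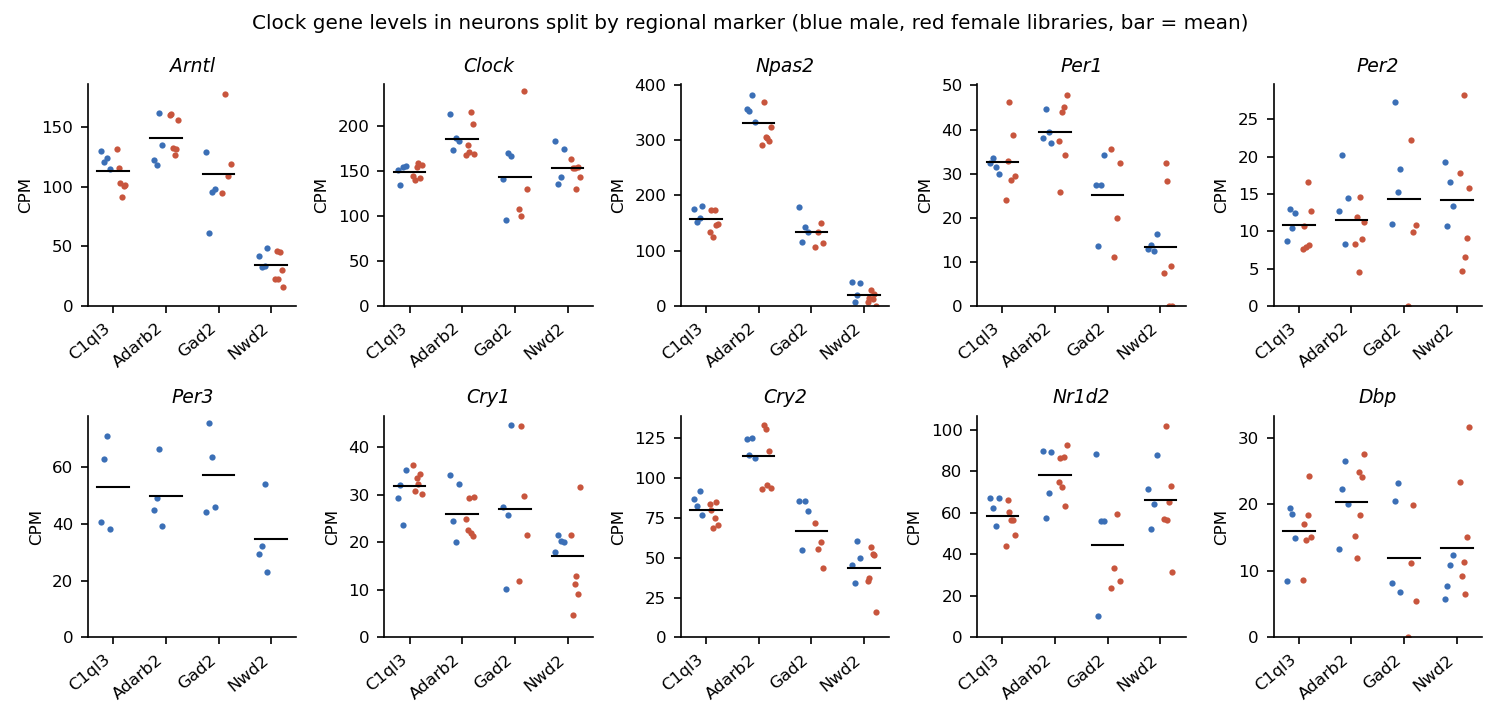
Level (CPM, linear axis from 0) of each clock gene in the 4 marker classes of neurons, 1 point per library with the mean as a bar. Npas2 falls from 290 to 381 CPM in the Adarb2 class to 0 to 43.0 CPM in the Nwd2 class, and the Per2 points of all classes overlap.

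Npas2 had the largest fold changes by class among the 9 genes. Its lowest, median and highest levels were 290, 327 and 381 CPM in the Adarb2 class, 125, 155 and 181 CPM in the C1ql3 class, 107, 133 and 179 CPM in the Gad2 class (8 libraries) and 0, 17.1 and 43.0 CPM in the Nwd2 class. The Adarb2 class lay above all others and the Nwd2 class below all others in every library. Against the other classes the log2 fold change was 2.09 ± 0.09 in the Adarb2 class (adjusted p = 1.25e-23) and -3.04 ± 0.14 in the Nwd2 class (adjusted p = 1.90e-22). The call in the C1ql3 class (0.64 ± 0.09) is on the mean of log levels, and the C1ql3 level was above the plain mean of the other classes in only 4 of 10 libraries.

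Arntl was likewise lowest in the Nwd2 class. Library levels ran from 118 to 162 CPM in the Adarb2 class, from 91.3 to 132 CPM in the C1ql3 class, from 61.6 to 178 CPM in the Gad2 class (8 libraries) and from 15.8 to 48.7 CPM in the Nwd2 class, the last below all other libraries. The first 3 classes overlapped, and the C1ql3 and Gad2 classes did not differ at the threshold for Arntl (adjusted p = 0.519) or for Npas2 (adjusted p = 0.409). For Arntl the log2 fold change was 0.93 ± 0.08 in the Adarb2 class (adjusted p = 1.20e-13), 0.53 ± 0.08 in the C1ql3 class (0.49 and not called without male replicate 3) and -1.75 ± 0.12 in the Nwd2 class (adjusted p = 2.02e-17). Clock, in contrast, averaged 153 ± 16.6 CPM in the Nwd2 class and 149 ± 8.28 CPM in the C1ql3 class (SD, n = 10 each), which did not differ at the threshold (log2 -0.07 ± 0.08 for C1ql3 minus Nwd2, adjusted p = 0.451, where 41.0% of all genes were called).

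Per1 and Cry2 were also higher in the Adarb2 class (log2 0.75 ± 0.11 and 0.85 ± 0.07) and lower in the Nwd2 class (-1.28 ± 0.17 and -0.93 ± 0.09). The mean for the Adarb2 class includes the low Nwd2 class. Set against the C1ql3 class alone, where 23.6% of all genes were called, Npas2 (1.09 ± 0.09) and Cry2 (0.51 ± 0.07) were called higher in the Adarb2 class, while Arntl (0.30 ± 0.08) and Dbp (0.37 ± 0.14) were inside the size limit and Per1 (0.24 ± 0.10, adjusted p = 0.0527) passed neither limit. Cry1 was lower in the Nwd2 class (-0.63 ± 0.15), as was Per3 in male libraries (-0.60 ± 0.12, adjusted p = 3.82e-04, against 20.1% of all genes called lower). Dbp was called higher in the Adarb2 class (0.53 ± 0.15, adjusted p = 0.00218), at 20.4 ± 5.56 CPM (SD, n = 10), and fell inside the size limit without male replicate 4 (0.46). Clock, Per2 and Nr1d2 had no call in any class against the mean of the others. Between pairs of classes, Per2 was called lower in the C1ql3 than in the Nwd2 class (-0.54 ± 0.19, adjusted p = 0.0147, edgeR). Nr1d2 was called higher in the Adarb2 than in the Gad2 class (0.60 ± 0.15, adjusted p = 0.00159), and Clock in no pair. Of 15 other loop genes tested, 8 were lower in the Nwd2 class (19.7% of all genes) and 6 higher in the Adarb2 class (13.1%). The immediate early genes, a list of 8 activity markers, had 4 of 6 tested members lower in the Nwd2 class, 2 higher and 1 lower in the Adarb2 class (14.0% of all genes were lower), and 4 higher and 1 lower in the C1ql3 class (10.6% higher and 7.17% lower).

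No clock gene was called in the Gad2 class by nucleus markers (0 of 9 by edgeR and by DESeq2, 3 at an unadjusted p under 0.05 by edgeR, with 11.8% of all genes called). With the deposited clusters in its place Arntl was -0.56, Npas2 -0.78 and Per1 -0.53 there, each called lower, where the nucleus rule had given 0.28, 0.31 and 0.11, none of them called. Those values are on the mean of log levels, and against the plain mean of the other classes Npas2 was higher in 0 of 8 libraries, Arntl in 4 and Per1 in 3. Per2 averaged 18.5 ± 5.05 CPM in the deposited Gad2 cluster and 9.51 ± 1.63 CPM in the deposited C1ql3 clusters (SD, n = 10 each). Those C1ql3 clusters are neuron clusters 1 and 4, while clusters 2, 7 and 8 took no class. Cluster 2, with C1ql3 at 277 CPM, had Per2 at 13.8 CPM, against 8.72 and 11.2 CPM in clusters 1 and 4. By nucleus markers Per2 was not called between the C1ql3 and Gad2 classes (log2 -0.57 ± 0.24 for C1ql3 minus Gad2, edgeR).

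Levels were next compared between libraries. Per1 in neurons ranged from 27.6 to 53.9 CPM, and female replicate 3 was highest for Per1 in neurons, in astrocytes (64.4 CPM), and in oligodendrocytes, ependymal cells and fibroblasts, and had the highest summed immediate early gene level in neurons (195 CPM, against 78.8 to 181 CPM in the others). In astrocytes the summed level was highest in male replicate 4 (52.0 CPM, with Per1 at 35.7 CPM), above female replicate 3 (45.6 CPM). In neurons Per1 was 38.0 CPM in male replicate 4, whose summed level was 181 CPM. Female replicates 6 and 1, each with a summed level of 78.8 CPM, had Per1 at 37.5 and 27.6 CPM. The part of the immediate early genes in the Per1 level was not tested. In neurons the median SD of log2(CPM + 1) over the 9 genes was 0.15 in male and 0.17 in female libraries, below the median of all tested genes (0.26 and 0.21), and above the counting error of 0.05 and 0.08. In astrocytes it was 0.27 in male libraries, below the 0.37 of all genes, and 0.38 in female libraries, above their 0.30. In oligodendrocytes it was above that of all genes in both sets (0.46 against 0.41 and 0.59 against 0.40), with a counting error of 0.45 and 0.60. Dbp had an SD of 0.48 in neurons and 0.62 in astrocytes of male libraries, the largest of the 9, and this rests on male replicate 1: without it the SD was 0.12 and 0.30, and Cry1 (0.28) and Nr1d2 (0.34) were largest.

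**Figure D4:**
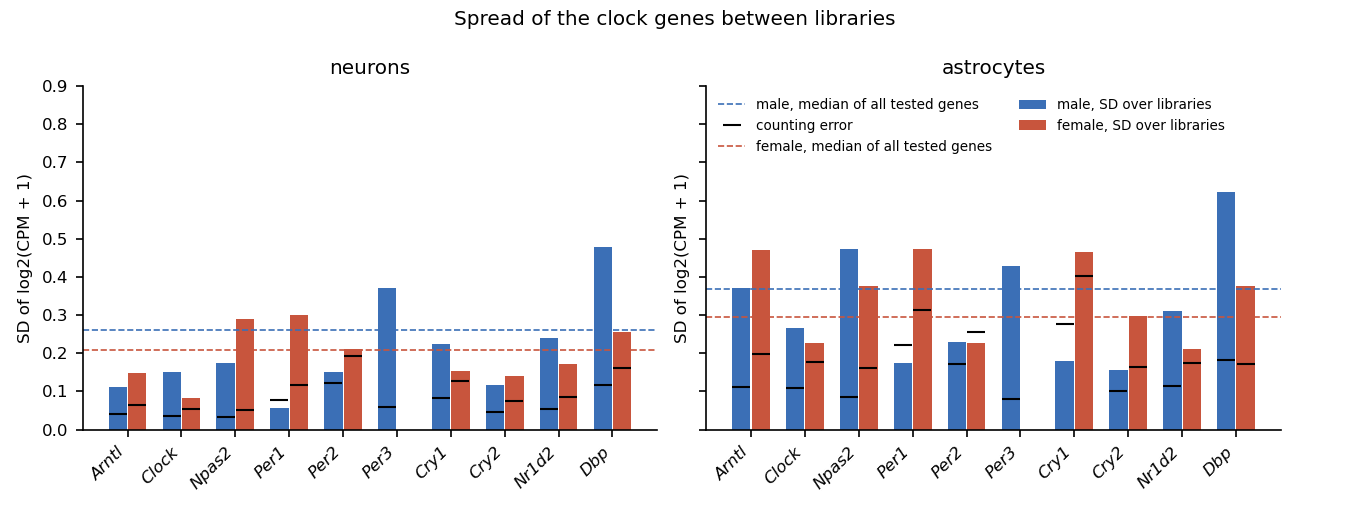
SD of log2(CPM + 1) over libraries of each clock gene in neurons and astrocytes, by set (bars), with the SD from counting error (black dashes) and the median SD of all tested genes (dashed lines). Dbp in male libraries has the tallest bar in both types, 0.48 and 0.62, which fell to 0.12 and 0.30 without male replicate 1.

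A library high for Dbp in neurons was high for it in astrocytes. With levels centred on the mean of their set, Pearson's r over 10 libraries was 0.95 (exact permutation within sets, p = 8.10e-04, adjusted p = 0.00729 over 9 genes, two-sided) and Spearman's rho was 0.94 (exact permutation p = 6.37e-04). Without the 2 libraries farthest from the median in neurons r was 0.96. Within the 6 female libraries alone r was 0.90, and the adjusted p was 0.125. None of the other 8 genes passed, with r from -0.36 (Npas2) to 0.77 (Per1, adjusted p = 0.19 by exact permutation).

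Arntl was set against 8 other members in neurons. Its transcript and those of its targets are known to peak at opposite times of day. That reason does not cover Clock and Npas2, which encode partners of ARNTL. No pair passed over 10 libraries after adjustment. The largest r was 0.82 with Npas2 (exact permutation p = 0.00909, adjusted p = 0.0727), which dropped to 0.38 without the 2 libraries farthest from the median, and Cry2 had 0.69 (exact permutation p = 0.0436, adjusted p = 0.174). For Dbp r was 0.26 and for Per2 -0.25. The pairs that passed in female replicates left out in turn or without centring were Npas2 and Cry2, both positive.

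**Figure D5:**
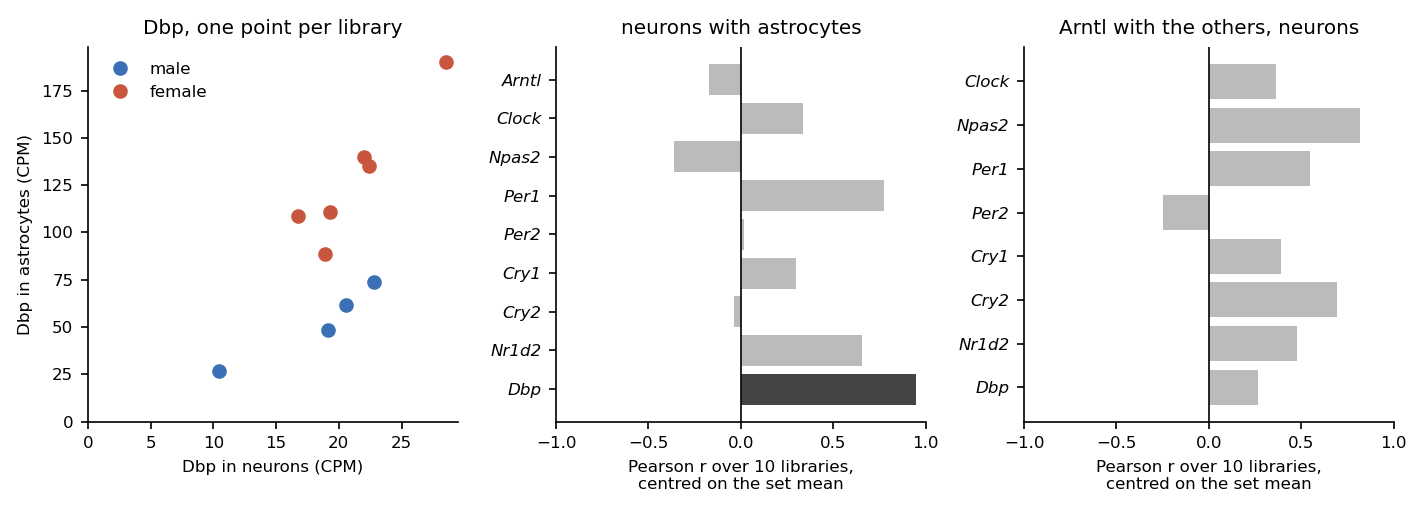
The left panel shows Dbp in astrocytes against Dbp in neurons (CPM), 1 point per library. The other panels show Pearson r over 10 libraries for each gene between neurons and astrocytes and for Arntl with each other gene in neurons. The dark bar of Dbp (0.95) is the one that passes an adjusted p of 0.05.

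Between the sets of libraries, only Dbp in astrocytes was called. Male replicates 1 to 4 stood at 26.8, 61.9, 73.6 and 48.5 CPM, and the female libraries had 88.4, 123 and 190 CPM as lowest, median and highest. The sets did not overlap. The log2 fold change of female over male was 1.34 ± 0.28 (adjusted p = 0.0118 by edgeR), and 6.82% of 9340 genes were called in this comparison. Without male replicate 4 the adjusted p was 0.0505. In neurons Dbp was 20.7 CPM at the female median and 10.4, 20.6, 22.8 and 19.1 CPM in male replicates 1 to 4, which overlap (log2 0.23 ± 0.21, adjusted p = 0.574). The 9 genes gave 0 calls in neurons by edgeR and by DESeq2 (4.27% of all genes by edgeR), with 0 at an unadjusted p under 0.05, and 0 in oligodendrocytes by both tools, where 4 passed the filter, 0 had an unadjusted p under 0.05 and 6.91% of all genes were called.

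The difference between sets was larger in astrocytes than in neurons for Dbp. Astrocytes minus neurons was 2.54 ± 0.11 in female and 1.38 ± 0.12 in male libraries on the log2 scale (61.5% and 58.0% of all genes were called), and the interaction was 1.16 ± 0.16 (adjusted p = 3.02e-04, edgeR, 14881 genes tested, 1.85% called). Of 12 other loop genes tested between the sets in astrocytes, 3 were called, all higher in female libraries, where 6.82% of all genes were called. Nr1d1 was 1.24 ± 0.30 higher (adjusted p = 0.0261, edgeR), Bhlhe40 0.75 ± 0.19 (adjusted p = 0.0305) and Bhlhe41 0.69 ± 0.19 (adjusted p = 0.0490). The interaction was called for Nr1d1 (1.23 ± 0.27, adjusted p = 0.0238). It was not called for Bhlhe40 (0.70 ± 0.20, adjusted p = 0.0695) or Bhlhe41 (0.34 ± 0.18, adjusted p = 0.381). Nr1d1 libraries overlapped, since male replicate 2 stood at 92.8 CPM and the lowest female library at 88.4 CPM. Neuron markers in astrocytes summed to 493 to 1821 CPM in male and 402 to 857 CPM in female libraries, and the median mitochondrial percent per nucleus was 0.123, 1.30, 0.242 and 0.404 in male replicates 1 to 4 and 1.04 to 1.45 in female libraries. Their part in the result was not tested. Sex, depth, mitochondrial percent, gene annotation and the hour of collection, which is not known, cannot be told apart here.

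The genes whose levels followed Arntl and Dbp most closely were named over 30 sums (neurons, astrocytes and oligodendrocytes of 10 libraries), centred on cell type and set. For Arntl, among 5992 genes, the highest r were Pex14 (0.79), Antxr1 (0.79), 1600020E01Rik (0.78), Trp53bp1 (0.73) and Sned1 (0.72), and the lowest Atp1b3 (-0.75), Rragc (-0.71), Tubb4a (-0.70), Utp11 (-0.69) and Canx (-0.67). For Dbp, which itself was too low in oligodendrocytes to pass the filter, they were Tsnax (0.81), Rbbp7 (0.78), Tex10 (0.75), Tollip (0.75) and Zfp644 (0.73), and Rgs6 (-0.83), Trim9 (-0.83), Trpm3 (-0.80), Ptprt (-0.78) and Gria1 (-0.77). None of the 20 is on the clock gene lists. The points share libraries and depth, and these values are a description.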

How the data were processed

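Nuclei of 10 libraries were prepared by the authors with 10x Genomics 3' chemistry and counted with Cell Ranger, version 6.1.1 on mm10 by the submitters' processing notes, while the study's methods name an earlier version. The deposited matrix holds UMI counts per gene and nucleus, as the authors made them, and the deposited metadata give cell type, sex, and the percent of mitochondrial UMIs that the authors computed; 22 metadata columns were not used. The authors had removed nuclei with few genes or a high mitochondrial percent and clusters called doublets, and no doublet caller was run here. Titles give no sex for the first 4 libraries, which are called male from the metadata.

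The clock genes and lists were chosen with earlier results of these data known. Counts were summed per library and type (at least 10 nuclei), genes with at least 20 UMIs in each set were kept, and filterByExpr, TMM and edgeR 4.0.16 quasi-likelihood tests (R 4.3.3) followed, with library as a block, since the types of a library come from the same pooled mice. CPM uses the TMM library size. DESeq2 1.42.0, other scaling and filters, nuclei thinned to 2000 UMIs, nuclei under 1 percent mitochondrial UMIs, single sets and leaving out each library were alternatives. P-values measure the spread between libraries. The fits were tested on simulated data. The interaction test found few of the smaller differences put into those data and most of the larger ones, which were added once the smaller had been missed, so an interaction that was not called says little.

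Named were the 10 clock genes, called genes of 16 other clock genes, 8 immediate early genes as counts, and the 5 genes most and least like Arntl and Dbp. Correlations used log2(CPM + 1) and all 17280 permutations within sets. Per3 left 8 and 9 pairs where 9 and 10 had been planned.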

Additional observations from a re-analysis of the deposited data

Results flagged for a closer look

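The set difference of Dbp was larger in astrocytes than in neurons by 1.16 on the log2 scale (adjusted p = 3.02e-04, edgeR interaction), and that of Nr1d1 by 1.23 (adjusted p = 0.0238). Sex, depth, mitochondrial percent, gene annotation and the hour of collection, which is not known, cannot be told apart between the sets.

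Of 198 groups of at least 4 libraries of the same set, 3 held a library far from the others by Dixon's criterion, where chance flags about 1 in 20. Clock in microglia stood at 166 CPM in male replicate 4, against 153 to 154 CPM in the other male libraries. Cry1 in astrocytes stood at 41.0 CPM in female replicate 6 (24 UMIs), against 15.8 to 24.3 CPM. Nr1d2 in fibroblasts stood at 288 CPM in female replicate 4 (11 UMIs), against 136 to 156 CPM.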

How the results depend on the processing

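Of the 17 higher and 19 lower calls by type, counts stayed within 1.5 times under DESeq2, DESeq2 size factors, no library block, no filter and all genes. Lower calls were 8 in male libraries only, 12 with nuclei thinned to 2000 UMIs and 7 with nuclei under 1 percent mitochondrial UMIs. Leaving out each library gave 16 to 19 higher and 17 to 20 lower calls. By neuron class (7 higher, 5 lower), 1 UMI of the marker gave 4 higher and the deposited clusters 9 lower calls, and leaving out a library gave 6 to 7 and 5 to 6. Dbp in ependymal cells reversed to -0.028 in male libraries only and to -0.89 under 1 percent mitochondrial UMIs, where Cry2 in endothelial cells reversed to 0.50. With deposited clusters Npas2 (-0.78), Arntl (-0.56) and Per1 (-0.53) reversed in the Gad2 class. The cause was not tested.

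The replicate numbers of the sets belong to different mice. Same-numbered neuron libraries correlated at -0.08, -0.07, -0.13 and 0.10, and differently numbered ones at -0.46 to 0.51. With so wide a range, these values cannot decide whether a number also marks a shared run. The replicate block on replicates 1 to 4 gave 0 calls among the 9 genes in astrocytes (Dbp 1.19, adjusted p = 0.0775), as did the same 8 libraries without the block (0 calls, Dbp 1.11, adjusted p = 0.095), an alternative chosen after seeing the data. It gave 0 in neurons and oligodendrocytes, as in the main test. Leaving out each library gave 0 to 1 calls in astrocytes (0 without male replicate 4), 0 to 0 in neurons and oligodendrocytes, and 1 to 1 for the interaction. Without the library block, Arntl in C1ql3 neurons (0.49) and Per1 in endothelial cells (0.66) were no longer called.

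For Arntl in neurons, 0 of 8 pairs passed, 2 passed when pooled without centring, and leaving out a library gave 0 to 2 (1 without female replicate 3, 2 without female replicate 5). Between neurons and astrocytes 1 pair (Dbp) passed, 1 to 1 when a library was left out, 0 in female libraries only and 0 when pooled without centring (r = 0.79, adjusted p = 0.0507). Low UMI counts limit endothelial cells and fibroblasts most. The spread of male libraries without each in turn was chosen after seeing the data.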
